A study of Rattus norvegicus with 2 samples.

Results

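Circular RNAs (circRNAs) whose host genes encode kinesins, kinetochore proteins, cohesin and condensin subunits and the kinases of cell division were compared between a bone cancer pain library and a control library. Members were chosen by the host gene's name alone: names beginning with KIF, SMC, STAG, BUB, ESCO, PLK or NEK followed by a digit, names beginning with CENP, NCAP or AURK, SPC24 and SPC25, and NUF2, ANLN, NIPBL and TPX2. They made 210 of 17257 circRNAs, on 58 of 4992 host names. Of these names, 2 matched by spelling only: KIF9-AS1 is an antisense RNA, and PLK1S1 is an older symbol of a centrosome protein that is not a kinase.

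In the labelled design, rats of the bone cancer pain group were given living Walker256 cells (from a carcinoma of the rat breast, passaged as ascites) in the marrow cavity of the tibia. Control rats received the same cells after 20 minutes of boiling, with the same operation. Each group held 3 animals, killed 21 days after surgery, and gave 1 library; whether RNA was pooled is not stated in the labels, nor is the animals' sex or age. RNA was depleted of ribosomal RNA and digested with RNase R, which degrades linear RNA, so that back-splice junctions were enriched. The labels name both ascites cancer cells and spinal cord cells as the source. Of 17 markers of spinal cord neurons and glia, 1 had a circRNA: the myelin gene MBP, with 3 bone cancer pain and 2 control reads.

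Cell division depends on several machines that these genes encode. Cohesin rings hold sister chromatids together, condensin compacts them, and the kinetochore, built on centromeric chromatin, attaches them to spindle microtubules. Kinesins move along or shorten microtubules, and the Aurora, Polo and NEK kinases time these steps. A circRNA forms when a downstream splice site of such a gene joins an upstream one; its junction reads measure that loop and neither the linear mRNA nor the protein. Because a junction is counted at a single point, its reads carry no length term, but a host sum grows with the number of its circRNAs.

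The table lists values scaled to the junction reads of each library, from which whole reads were recovered, 151685 in the bone cancer pain library and 159941 in the control. The lowest listed value was 2 reads in either library, so absence from a library allows for 1 read. The identifiers were human: 115 of the 210 members had an entry of the human kind in circBase, which catalogues circRNAs from earlier studies. Of the 58 host names, 56 had a rat gene of the same name in assembly GRCr8, and 5 of these lay on the same chromosome number in the table. Positions below are those of the table, which names no genome build, and libraries are called by their labels. With 1 library per group there was no replicate and no test; every ratio is the share in the bone cancer pain library over the share in the control, with an exact 95% interval that covers counting error only.

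As a whole, the members took the same share of both libraries. Their reads came to 1486 in the bone cancer pain library, or 0.980% of its total (exact interval 0.931 to 1.03), and 1568 in the control, which was 0.980% (0.933 to 1.03). The ratio of these shares was 1.00 (0.930 to 1.07). A host gene with at least 10 reads in all counted as higher at a ratio of at least 2 and lower at 0.5 or less, after 0.5 reads were added to each library; this is a rule of size. Of the 42 members with that many reads, 3 were higher, where 13.3% of all 3038 host genes were, and 8 were lower, where 14.2% were; 31 lay between. The interval also excluded 1 for all 3 of the higher (9.22% of all) and for 6 of the lower (9.48% of all). The median log2 ratio was -0.05 for members and -0.03 for all host genes. Past these limits with intervals that excluded 1 were the cohesin loader NIPBL, the kinetochore gene SPC24 and the kinesin KIF20B on the higher side, and ESCO1, NCAPH, NCAPD3, CENPO, KIF24 and the antisense RNA KIF9-AS1 on the lower. KIF9-AS1 was lower only without a junction that also names small RNAs and falls outside the name rule; with such junctions it had 8 bone cancer pain and 14 control reads, and 7 members were lower in place of 8.

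**Figure D1:**
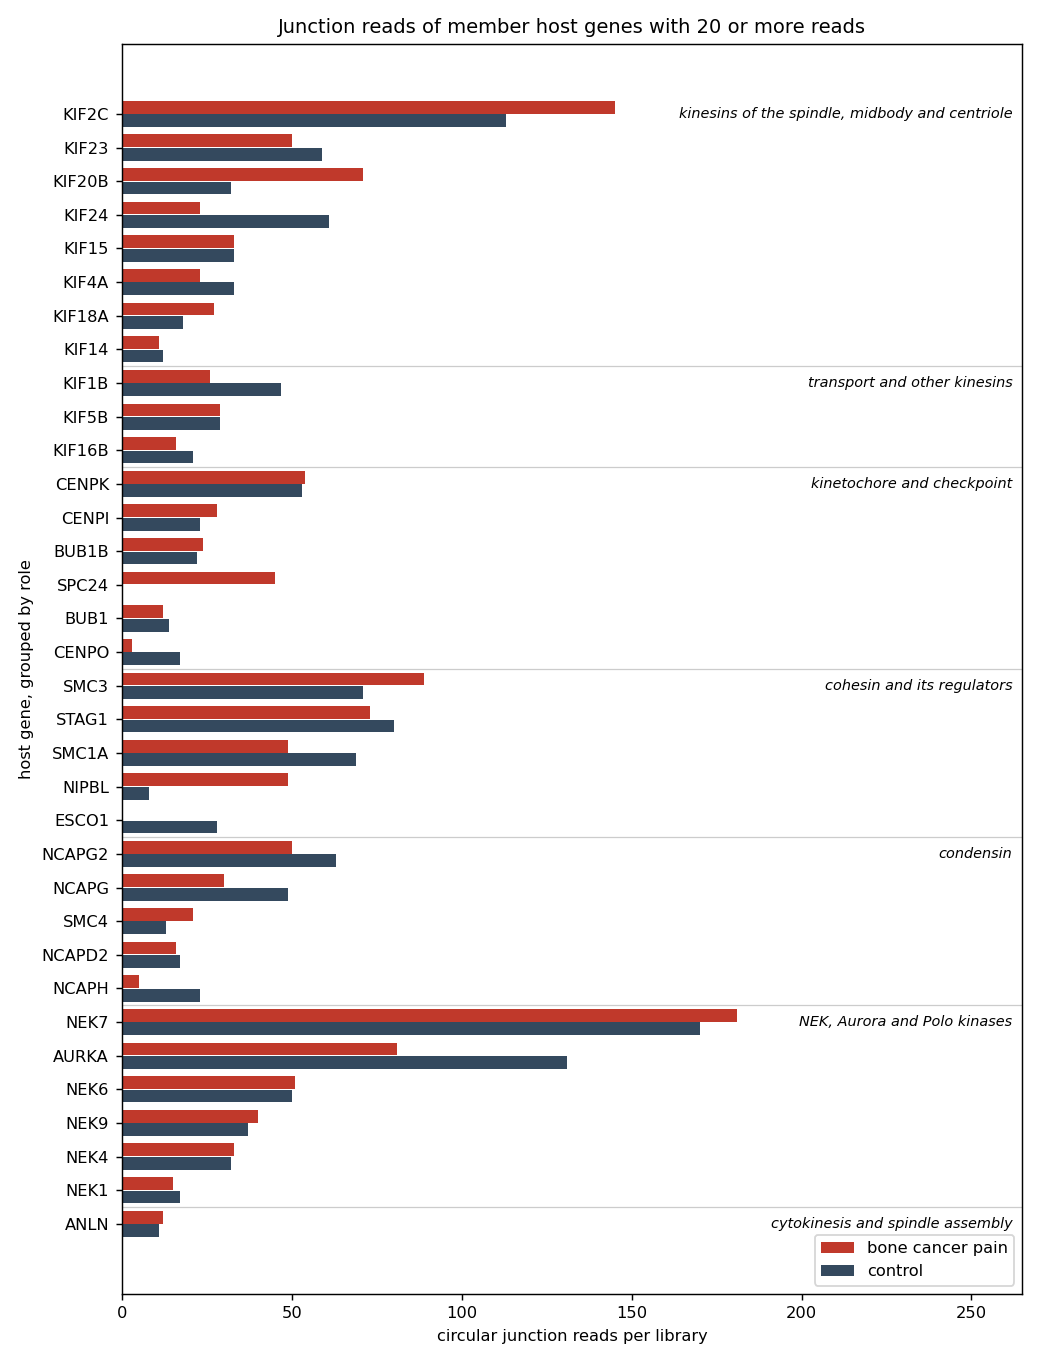
Bars give the circular junction reads of each host gene with 20 or more reads over both libraries, bone cancer pain above control, grouped by role. SPC24 has 45 bone cancer pain reads and no control bar, ESCO1 has 28 control reads and no bone cancer pain bar, and NEK7 has the longest bars, at 181 and 170.

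In cohesin and its regulators, the gene of the loader was higher and that of an acetyltransferase was absent from the bone cancer pain library. NIPBL, which loads cohesin onto chromatin, had 49 bone cancer pain reads and 8 control reads (6.46, 3.03 to 15.8). Most of them came from hsa_circ_0001472 (chromosome 5, 36953720 to 36976504), with 33 and 5 reads (6.96, 2.70 to 22.8). The remaining NIPBL circRNAs had 16 and 3 reads (5.62, 1.61 to 30.1), so the difference did not rest on 1 junction alone. Of the 5 NIPBL circRNAs, 2 were listed in both libraries and 3 in the bone cancer pain library alone. The other circRNA listed in both had 6 and 3 reads, with an interval that included 1 (2.11, 0.450 to 13.0).

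ESCO1, an acetyltransferase of cohesin, was listed only in the control. Its 28 reads lay on 4 circRNAs, the most abundant being hsa_circ_0009110 (chromosome 18, 19144164 to 19148055) with 16, with none of its circRNAs found in the other library. The core ring subunits differed less. SMC3 had 89 bone cancer pain and 71 control reads (1.32, 0.957 to 1.83), almost all on hsa_circ_0000260 (chromosome 10, 112356156 to 112358048), which had 85 and 66 (1.36, 0.973 to 1.90). SMC1A had 49 and 69 (0.749, 0.508 to 1.10).

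STAG1, a subunit that binds the cohesin ring, had 73 bone cancer pain and 80 control reads (0.962, 0.691 to 1.34). STAG2, its alternative in the complex, had 4 and 13 reads with no circRNA listed in both libraries, so no ratio is given. STAG2 met the size rule for lower, but its interval included 1. The germline form STAG3 had 2 bone cancer pain reads. Summed over these 7 genes, the reads were 266 in the bone cancer pain library and 269 in the control (1.04, 0.877 to 1.24). Without NIPBL the sum ratio was 0.877 (0.729 to 1.05), and without ESCO1 it was 1.16 (0.974 to 1.39).

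**Figure D2:**
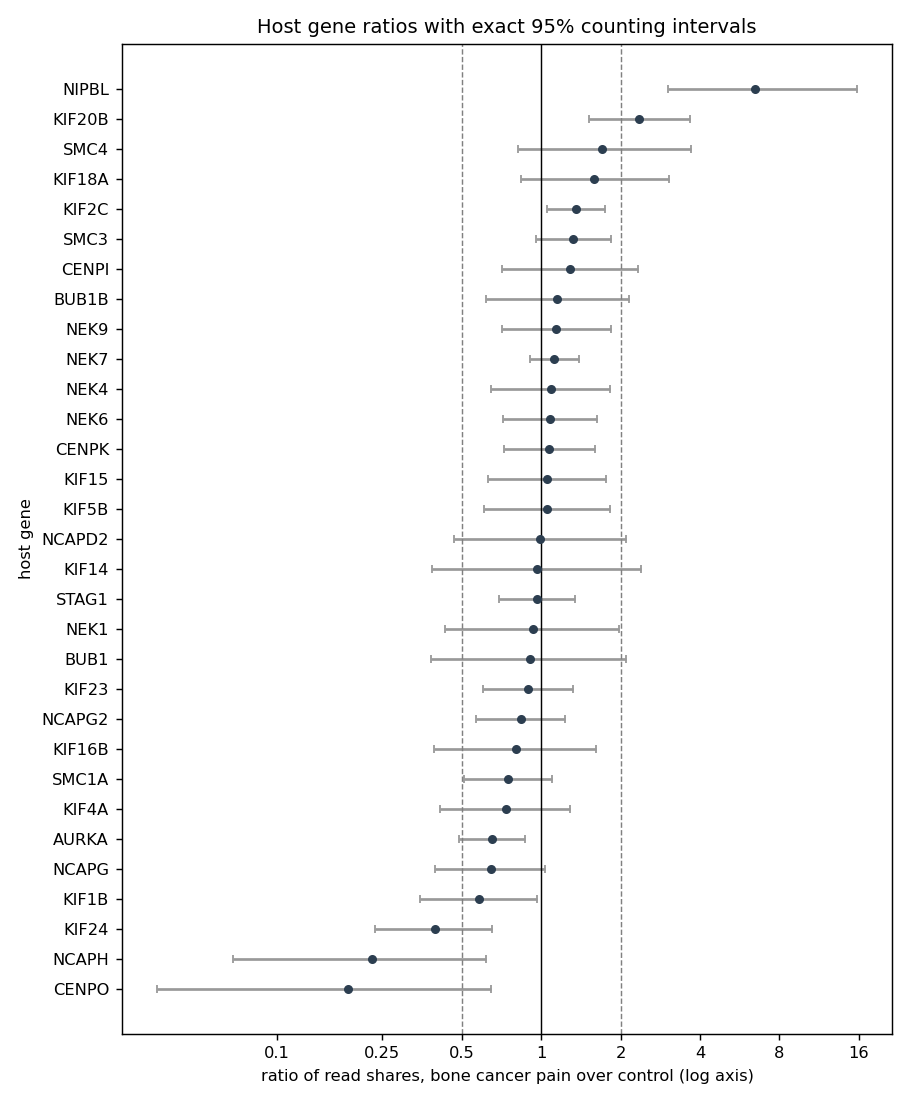
Points are the ratio of bone cancer pain over control shares for the host genes with 20 or more reads and a circRNA listed in both libraries, on a log axis, with exact 95% counting intervals; dashed lines mark 0.5 and 2. NIPBL at 6.46 and KIF20B at 2.34 lie past 2, while KIF24 at 0.398, NCAPH at 0.229 and CENPO at 0.186 lie past 0.5.

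Condensin, which compacts mitotic chromosomes, was lower in sum in the bone cancer pain library, with 122 reads against 175 in the control (0.735, 0.579 to 0.932). NCAPH, the kleisin subunit of condensin I, had 5 and 23 reads (0.229, 0.0681 to 0.616). Both of its circRNAs with 10 or more reads were low. The one at chromosome 2, 97035198 to 97039126 had 3 and 12 reads (0.264, 0.0477 to 0.977). The other, hsa_circ_0007532, had 2 and 9 (0.234, 0.0246 to 1.13), with an interval that included 1. NCAPD3, a subunit of condensin II, had no bone cancer pain reads and 10 control reads.

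The other condensin subunits had intervals that included 1. NCAPG, a HEAT-repeat subunit of condensin I, had 30 bone cancer pain and 49 control reads on its only circRNA, hsa_circ_0001395 (0.646, 0.396 to 1.04). Its condensin II counterpart NCAPG2 had 50 and 63 (0.837, 0.566 to 1.23), mostly on hsa_circ_0083182, with 43 and 57. NCAPD2, of condensin I, was level, with 16 and 17 (0.992, 0.469 to 2.09). SMC4, an ATPase shared by both complexes, went the other way with 21 and 13 (1.70, 0.814 to 3.70). The interval of the sum included 1 once NCAPH was left out (0.812, 0.632 to 1.04) or NCAPG was (0.770, 0.582 to 1.02). Of the 6 condensin genes, all with 10 or more reads, 2 were lower (14.2% of all host genes), none higher (13.3%) and 4 between, and with 6 genes this count shows nothing particular to condensin.

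At the kinetochore, SPC24 and CENPO were the extremes. SPC24, a subunit of the NDC80 complex that binds microtubules, had 45 bone cancer pain reads on hsa_circ_0007223 (chromosome 19, 11258494 to 11258789), a circRNA not listed in the control; 2 control reads of SPC24 lay on a junction that also names small RNAs, outside the name rule. SPC25, its partner in the complex, had 5 bone cancer pain and 8 control reads (0.659, 0.17 to 2.28). CENPO, of the inner kinetochore, had 3 and 17 on hsa_circ_0052999, a loop spanning 169 bp (chromosome 2, 25022544 to 25022713; 0.186, 0.0349 to 0.643).

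The other inner kinetochore and checkpoint genes with 10 or more reads lay between 0.5 and 2; CENPA, the centromeric histone, had no bone cancer pain and 2 control reads, too few to count. CENPK had 54 bone cancer pain and 53 control reads (1.07, 0.722 to 1.60), with 28 and 38 on its main circRNA (chromosome 5, 64824279 to 64825026; 0.777, 0.459 to 1.30). CENPI, which acts with it, had 28 and 23 (1.28, 0.713 to 2.33). CENPN, which reads the centromeric nucleosome, had 7 and 4. The checkpoint kinase BUB1 had 12 and 14 (0.904, 0.382 to 2.11) and BUB1B, which encodes the checkpoint protein BubR1, had 24 and 22 (1.15, 0.618 to 2.15). The sum over the 11 kinetochore and checkpoint genes was 185 in the bone cancer pain library and 147 in the control (1.33, 1.06 to 1.66). Without SPC24 it was 140 and 147 (1.00, 0.791 to 1.27), so the higher sum rested on that single circRNA.

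Among kinesins of the spindle, midbody and centriole, 9 of 11 genes had 10 or more reads. Of these, 1 was higher (13.3% of all host genes), 2 lower (14.2%) and 6 between; KIF22 and KIF2A had too few reads to count. KIF20B, a kinesin of cytokinesis, had 71 bone cancer pain and 32 control reads (2.34, 1.52 to 3.67), with 69 and 32 on hsa_circ_0019079 (chromosome 10, 91511103 to 91522592; 2.27, 1.47 to 3.57). KIF24, which depolymerizes microtubules at the centriole and restrains cilium formation, had 23 and 61 (0.398, 0.235 to 0.652). This was spread over its circRNAs: the most abundant (chromosome 9, 34286615 to 34297112) had 7 and 20 (0.369, 0.132 to 0.909), and the others together had 16 and 41. None of the 6 KIF24 circRNAs had more bone cancer pain than control reads.

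KIF2C, a microtubule depolymerase that corrects wrong attachments at the centromere, had the most reads of any kinesin, 145 in the bone cancer pain library and 113 in the control (1.35, 1.05 to 1.75). KIF11, which slides spindle microtubules apart, had 5 and 14 (0.377, 0.106 to 1.11), spread over 7 circRNAs of which none exceeded 5 reads. It met the size rule for lower with an interval that included 1. KIF23, of the central spindle, had 50 and 59 (0.894, 0.601 to 1.32), and KIF15, a spindle motor that can act beside KIF11, had 33 and 33 (1.05, 0.631 to 1.76). KIF4A, which binds chromosome arms, had 23 and 33 (0.735, 0.412 to 1.29). KIF18A, which limits chromosome movements, had 27 and 18 (1.58, 0.840 to 3.05), and KIF14, of cytokinesis, had 11 and 12 (0.967, 0.386 to 2.39).

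Kinesins of cargo transport summed to 75 bone cancer pain reads and 108 control reads over 7 genes (0.732, 0.538 to 0.992). KIF1B, a motor of mitochondria and synaptic vesicle precursors, had 26 and 47 reads (0.583, 0.347 to 0.961) over 13 circRNAs, of which 8 were listed in the control alone and 1 in the bone cancer pain library alone. On its circRNAs listed in both libraries the log2 ratio was 0.08, and with circBase identifiers alone it was 0.29, so its lower sum lay on control-only junctions of few reads. KIF5B, the ubiquitous heavy chain of conventional kinesin, had 29 and 29 (1.05, 0.608 to 1.83), and the endosomal motor KIF16B had 16 and 21 (0.803, 0.392 to 1.62). The sum's interval included 1 without KIF1B (0.847, 0.569 to 1.25) or without KIF16B (0.715, 0.505 to 1.01).

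None of the NEK, Aurora and Polo kinases with 10 or more reads was higher or lower by size: all 7 lay between. Over all host genes 72.5% lay between, and with 7 genes this count shows nothing particular to these kinases. NEK7, a kinase of the spindle and also a partner of the NLRP3 inflammasome, had the most reads of all members, 181 in the bone cancer pain library and 170 in the control (1.12, 0.906 to 1.39). Its relatives NEK6 (51 and 50; 1.08, 0.714 to 1.62) and NEK9, which activates both (40 and 37; 1.14, 0.711 to 1.83), also had intervals that included 1. The main NEK6 circRNA, hsa_circ_0088485, had 33 and 37 reads (0.940, 0.570 to 1.55). NEK4 had 33 and 32 (1.09, 0.648 to 1.83), and NEK1, known for roles at cilia and in DNA damage, had 15 and 17 (0.930, 0.433 to 1.98).

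AURKA, a kinase of the centrosome and spindle, was the exception in its interval. It had 81 bone cancer pain and 131 control reads (0.652, 0.488 to 0.867). AURKB, the kinase of the chromosomal passenger complex, had 10 and 7 (1.51, 0.518 to 4.66). PLK1 had 2 control reads only. ANLN, the actin-binding anillin of the cleavage furrow, had 12 and 11 reads on 6 circRNAs, none of them listed in both libraries.

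Of the 66 member circRNAs with 10 or more reads, 11 were higher, where 17.3% of all 5415 circRNAs were, and 11 were lower, where 17.0% were. Intervals lay clear of 1 for 6 of the higher, against 10.7% of all, and for 7 of the lower, against 10.2% of all. In share, both counts were near the background. Beside those given, the higher circRNAs with 20 or more reads were KIF23 hsa_circ_0006767 (15 bone cancer pain and 7 control reads) and a CENPK circRNA (chromosome 5, 64824279 to 64838675; 14 and 7), both with intervals that included 1.

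**Figure D3:**
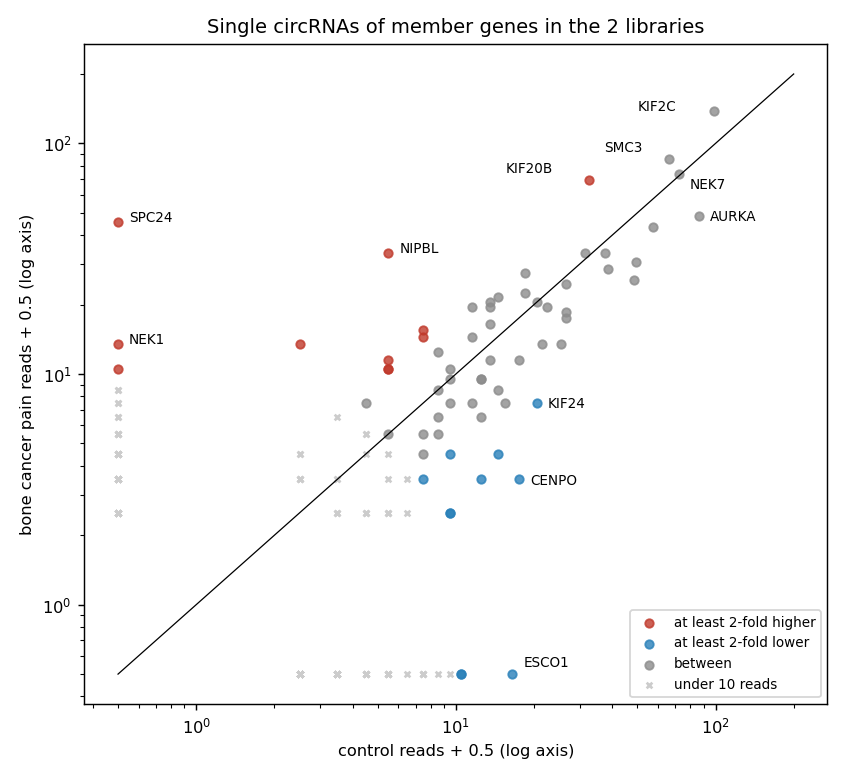
Each point is 1 member circRNA, with bone cancer pain reads against control reads after adding 0.5, on log axes; the line marks equal reads. SPC24 (45 and 0), NIPBL (33 and 5) and KIF20B (69 and 32) lie above the line, and CENPO (3 and 17), KIF24 (7 and 20) and ESCO1 (0 and 16) below it.

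Host sums combined junctions with different ratios. Of 16 members with at least 2 circRNAs of 10 or more reads, 13 (81.2%) had circRNAs on both sides of a ratio of 1, against 695 of 1116 such host genes in the whole table (62.3%); with 0.5 reads added, small counts can fall on either side by counting error. In each pair below the 2 intervals overlap, and the difference between junctions was not tested. In AURKA, hsa_circ_0004887 (chromosome 20, 54956489 to 54959380) had 48 bone cancer pain and 86 control reads (0.589, 0.405 to 0.847). A longer loop from the same start, hsa_circ_0008777, had 33 and 31 (1.12, 0.666 to 1.90). Another from that start, hsa_circ_0060949, had no bone cancer pain and 10 control reads. Without hsa_circ_0004887 the AURKA sum was 33 and 45 (0.773, 0.478 to 1.24). In SMC1A, hsa_circ_0090641, spanning 146 bp, had 25 and 48 (0.549, 0.324 to 0.909), while hsa_circ_0001921 had 19 and 11 (1.82, 0.824 to 4.24).

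In KIF2C, loops that share a start also had ratios on both sides of 1. Its main circRNA, hsa_circ_0002563 (chromosome 1, 45223228 to 45223812), had 138 bone cancer pain and 98 control reads (1.48, 1.14 to 1.94), and the longer hsa_circ_0012167 had 7 and 15 (0.492, 0.17 to 1.28). In KIF5B, whose sums were equal, hsa_circ_0006408 had 4 and 14 (0.301, 0.0722 to 0.959) and a shorter loop to the same end had 11 and 5 (2.32, 0.743 to 8.52). KIF23 hsa_circ_0003166 had 13 and 25 (0.548, 0.258 to 1.11), against 20 and 13 for hsa_circ_0004266 (1.62, 0.768 to 3.55). The circRNAs set beside the main one in AURKA, SMC1A, KIF2C and KIF23, and both of KIF5B, were chosen after their values were seen.

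**Figure D4:**
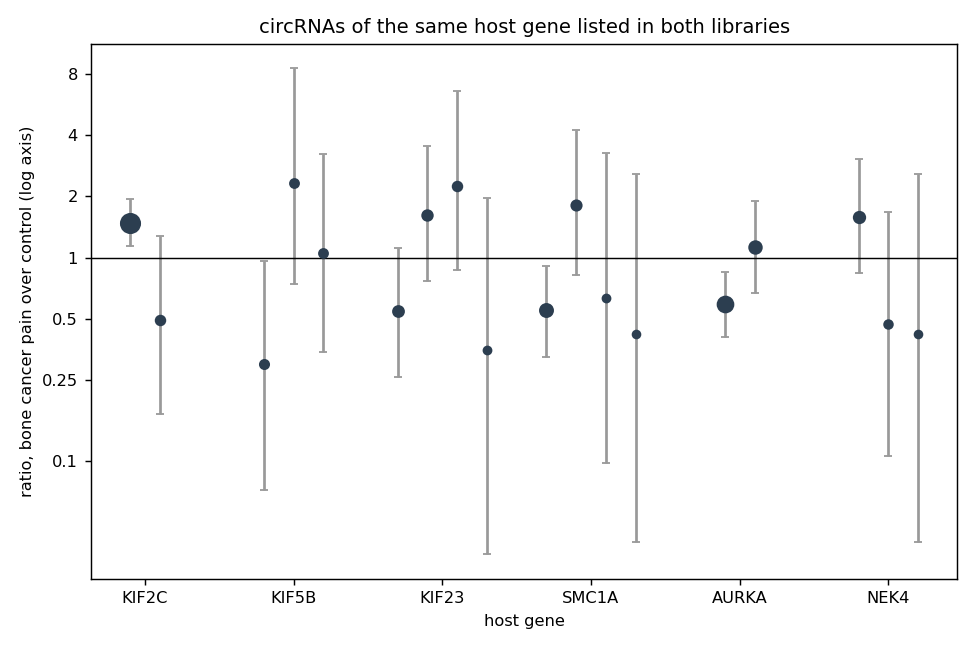
Points are single circRNAs listed in both libraries for 6 host genes, with the ratio of bone cancer pain over control on a log axis, exact 95% counting intervals and larger points for more reads. In KIF2C, KIF5B, KIF23, SMC1A, AURKA and NEK4, circRNAs of the same gene lie on both sides of 1. These 6 genes were chosen after their values were seen, out of the 13 of 16 members with circRNAs on both sides. Lying on both sides therefore follows from the choice.

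NEK7 and STAG1 showed how loops combine a few splice sites. The 13 NEK7 circRNAs used 6 starts and 5 ends, and 12 of them shared a start or an end with another. The most abundant, hsa_circ_0006267 (chromosome 1, 198247091 to 198266370), had 73 bone cancer pain and 72 control reads (1.07, 0.761 to 1.5), which was 40.3% and 42.4% of the gene's reads. Next came hsa_circ_0008188 with 24 and 26 and hsa_circ_0002528 with 18 and 26, both ending at 198233365. All 7 NEK7 circRNAs listed in both libraries had intervals that included 1, and over these the log2 ratio was -0.004, against 0.17 for the whole sum. A further 5 were listed in the bone cancer pain library alone, with 8 reads or fewer each. Of these, the circRNAs with 8 and 6 reads had intervals that excluded 1. The last was listed in the control alone, with 5 reads.

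STAG1 had the most circRNAs of any member, 20, from 10 starts and 10 ends. Each of them shared a start or an end with another. Its most abundant, hsa_circ_0001342, spans 164 bp (chromosome 3, 136323151 to 136323315) and had 17 bone cancer pain and 26 control reads (0.689, 0.351 to 1.32). The longest STAG1 loop spans 68638 bp. One STAG1 circRNA, hsa_circ_0067479 (chromosome 3, 136162129 to 136196254), chosen after its values were seen, had 13 and 2 reads (6.85, 1.55 to 62.6). Across all members with at least 2 circRNAs, 131 of 193 circRNAs (67.9%) shared a start or an end within the gene. Over all such host genes it was 71.3%.

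**Figure D5:**
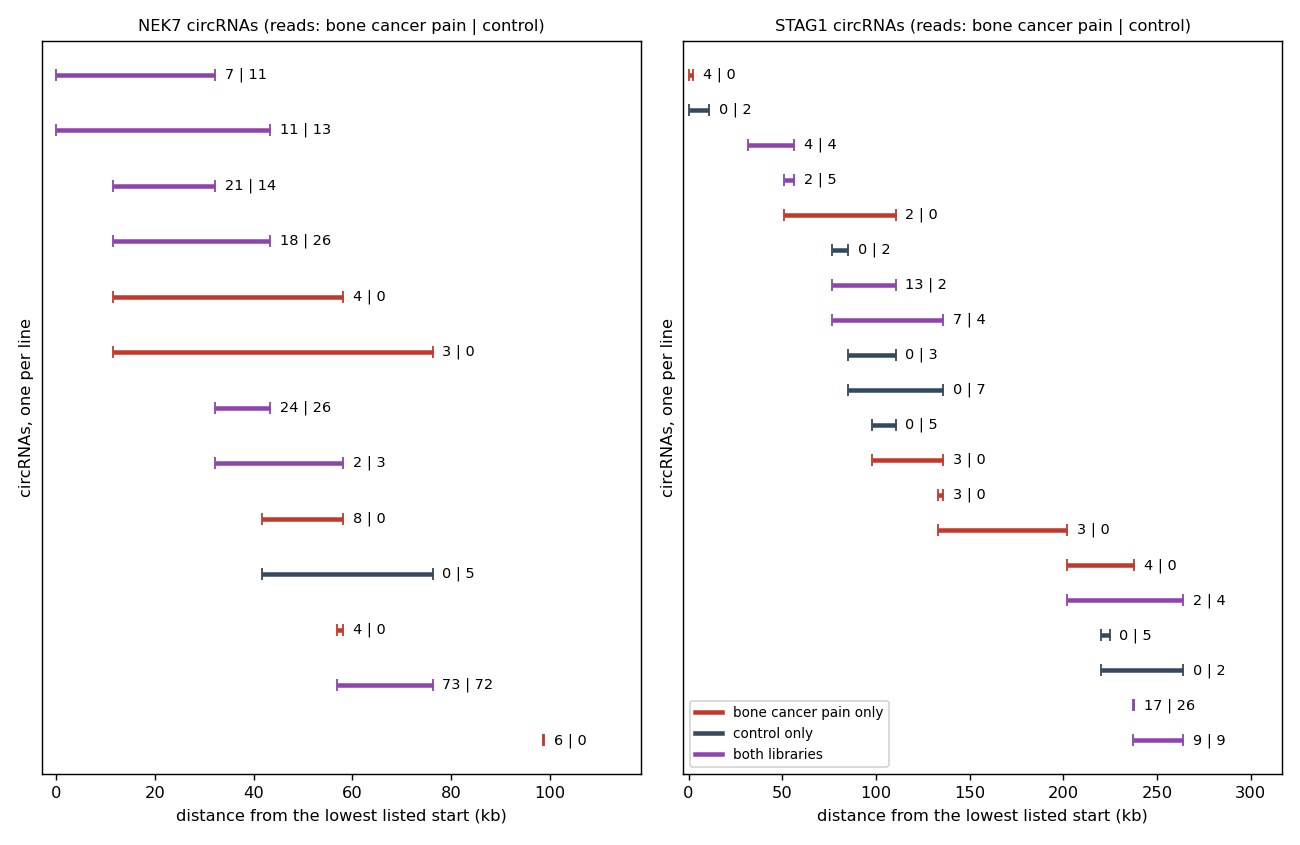
Horizontal bars span each circRNA of NEK7 and STAG1 by distance in kb from the lowest listed start, with bone cancer pain and control reads beside it; colour marks listing in both libraries or in 1. The NEK7 loop with 73 and 72 reads is the most abundant, and the STAG1 loops listed in 1 library have 7 reads or fewer.

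Listing in both libraries was about as common as in the whole table. Of the 210 members, 85 (40.5%) were listed in both, against 42.0% of all. A further 51 (24.3%) were listed in the bone cancer pain library alone, against 29.4% of all, and 74 (35.2%) in the control alone, against 28.6% of all. Both kinds had a median of 3 reads. They took 16.4% of the members' bone cancer pain reads (11.9% over all circRNAs) and 16.9% of their control reads (10.9% over all). KIF9-AS1 hsa_circ_0008377 had 10 control reads and was not listed in the bone cancer pain library. NEK1 hsa_circ_0071434 had 13 bone cancer pain reads and NEK9 hsa_circ_0032673 had 10, neither listed in the control; both were chosen after their values were seen. The 17 control reads of NEK1 were spread over 5 other circRNAs.

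Members spanned a median of 3902 bp, against 5764 bp over all circRNAs. The latter also hold circRNAs with several host names or none, which members cannot have, so the medians are of unlike sets. In all, 25 spanned under 500 bp, and 36 over 20000 bp. The 16 member genes with under 10 reads were TPX2, NEK11, KIF21A, PLK1S1, CENPC, CENPH, KIF2A, KIF3A, SMC6, KIF13A, CENPA, KIF13B, KIF22, NEK2, PLK1 and STAG3, with at most 9 reads each. SMC5, of the SMC5/6 complex that acts in DNA repair, had 9 bone cancer pain and 10 control reads (0.949, 0.341 to 2.60).

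A list of 89 other names, which the name rule does not match, was set beside the members. Most are cell division genes, and some, such as KIFAP3, KLC1 and TRAK1, encode partners of kinesins in transport. Of the 89 names, 52 had a circRNA and 34 had 10 or more reads. By size, 6 were higher (13.3% of all host genes), 2 lower (14.2%) and 26 between, with a median log2 ratio of 0.11. KIFAP3, with 11 bone cancer pain and 4 control reads, was 1 of the 6. The 2 lower were CIT (3 and 16 reads) and SPAG5 (2 and 8). Highest among those with 20 or more reads were HDAC8, which removes the acetyl group from cohesin (27 bone cancer pain and 11 control reads; 2.59, 1.24 to 5.78), the spindle proteins TACC1 (28 and 12; 2.46, 1.21 to 5.31) and GTSE1 (21 and 9; 2.46, 1.08 to 6.10), and the microtubule polymerase CKAP5 (41 and 18; 2.40, 1.35 to 4.44). PRC1, which bundles central spindle microtubules and was chosen after its values were seen, was also higher (27 and 12; 2.37, 1.16 to 5.14).

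Lowest among those with 20 or more reads was CLASP1, which stabilizes microtubules at kinetochores. It had 142 bone cancer pain and 281 control reads (0.533, 0.432 to 0.654) and did not meet the size rule for lower. It was followed by the checkpoint protein MAD1L1 (85 and 138; 0.649, 0.490 to 0.857), ZWILCH, of the complex that recruits it (24 and 36; 0.703, 0.401 to 1.21), and the topoisomerase TOP2A (41 and 60; 0.721, 0.472 to 1.09). The cohesin release and maintenance factors PDS5A (102 and 127; 0.847, 0.646 to 1.11), PDS5B (37 and 37; 1.05, 0.650 to 1.71) and WAPAL (20 and 19; 1.11, 0.562 to 2.20), also chosen after their values were seen, had intervals that included 1.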

How the data were processed

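One table of circRNAs was deposited, with 1 column per library. The submitters' processing notes list CASAVA 1.8, BWA and rn6 without roles; the caller of circRNAs is not given in the sources used here. Deposited values carry the heading TPM per the file headers and were taken as RPM: above a placeholder of 0.001, 100% were whole multiples of 1 step per library to within 0.001 reads. Dividing by the step gave reads; the placeholder was taken as 0.

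Of 17261 circRNAs, 17257 were considered; those of chromosome Y and of X inactivation genes were dropped, though library totals include them. Host sums used circRNAs with 1 host name. Sums without a circRNA in both libraries get no ratio. Intervals are exact (Clopper-Pearson, 95%) and cover counting error only. No count test was run, as each group has 1 library; scripts were tested on simulated data.

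Members, roles and lists were chosen with earlier results of these data known. Named were host genes with 20 or more reads, those absent from 1 library with 10 or more, the main circRNA of the 12 most abundant members, circRNAs with 20 or more reads past 2-fold, and the 4 highest and 4 lowest other division genes. Alternatives were median of ratios and TMM scaling, other minimums, additions and ratios, and subsets of circRNAs. Tools were matplotlib 3.10.9, scipy 1.17.1, numpy 2.4.6, pandas 2.3.3 and Python 3.11.15. Sequences and exon annotation were not used here.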

Additional observations from a re-analysis of the deposited data

How the results depend on the processing

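No paired analysis was possible because each group has 1 library. Of the 11 other settings fixed at the start and 5 added after seeing the data, none moved the members' share of reads outside its counting interval. The minimums, the added reads, the ratio limit and the interval rule do not enter that share and could not move it. The median log2 ratio of member host genes, -0.05, lay between -0.35 (without the most abundant circRNA of each gene) and 0.08 (minimum of 5 reads), and was also above 0 with a minimum of 20 reads (0.03). Median of ratios scaling moved all log2 ratios by -0.08 and TMM by 0.002. Host genes called higher (3) became 6 at a ratio of 1.5. Those called lower (8) became 4 with a minimum of 20 reads and 3 over circRNAs listed in both libraries.

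The 11 higher circRNAs became 22 with a minimum of 5 reads, 5 with 20, 6 with 2 reads added, 18 at a ratio of 1.5, 6 with an interval that excludes 1 and 5 without each gene's most abundant circRNA. The 11 lower became 29 with a minimum of 5 reads, 2 with 20, 20 at a ratio of 1.5, 7 with the interval and 5 without the most abundant circRNA. Of other division genes, the 6 higher became 2 over circRNAs in both libraries and 2 with circBase identifiers only; the 2 lower became 6 with a minimum of 5 reads, 0 with 20, 6 at a ratio of 1.5, and 1 with the interval, over circRNAs in both libraries, without the most abundant circRNA and with the control thinned.

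Of 489 values for 31 named genes under these settings, 476 stayed within the gene's counting interval and 13 did not. Among genes past 2-fold, 0 changed sign. The minimums, the ratio limit, the interval rule and the removal of other genes do not enter a gene's own ratio. Values under those settings could not move and are counted in the 476, so that number does not measure stability. All 13 that moved came from subsets of circRNAs. NEK1 without its most abundant circRNA was at -2.73, and KIF4A at -1.87 (log2). The causes were not tested. With 151685 and 159941 reads, 144 of the 210 circRNAs had under 10 reads, too few for a ratio to be read closely.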

Other observations

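The name rule left out 8 circRNAs whose host field named a member gene beside small RNAs. KIF9-AS1 had 8 bone cancer pain and 4 control reads on such a junction (chromosome 3, 47210659 to 47215753), which starts where its control-only circRNA does. With it, KIF9-AS1 had 8 bone cancer pain and 14 control reads. SPC24 had 2 control reads on another (chromosome 19, 11258035 to 11258789), which ends where hsa_circ_0007223 does, and KIF5B had 2 bone cancer pain and 6 control reads on such a junction. The other 5 had 2 reads each.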
